A study of Mus musculus with 16 samples.

Results

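The enzymes of triglyceride synthesis were followed in the mammary fat of mice that were lean, obese, or formerly obese. They were the genes Gpam, Agpat2, Lpin1, Dgat1, Dgat2, Gpd1, Pck1, Mogat1, Mogat2 and Pnpla3, listed by name with earlier results of these data known, and they make up 10 of the 23179 genes in the deposited table. All 10 passed the filter on low counts, which left 21218 genes for testing. RNA came from 16 female C57BL/6N mice (C57BL/6NCrl in the methods) of genotype wt, 4 in each of 4 groups, with 1 library a mouse. CON-LFD mice ate the control diet D12450J, a low-fat diet, throughout. The other 12 mice were first made obese on D12492, a 60% high-fat diet. DIO-HFD mice then stayed on that diet, DIO-LFD mice were moved to the low-fat diet with free access to food, and DIO-VSG mice had a vertical sleeve gastrectomy, in which part of the stomach is removed, and were then fed the low-fat diet. All mice without the gastrectomy had a sham operation. In every group E0771 mouse mammary cancer cells were injected into the fourth mammary fat pad 22 weeks after randomization, and the ninth pad, on the other side, was profiled at the end point. Every animal therefore carried a tumor elsewhere, and no tumor-free group was analysed here. The sample labels give no age.

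Triglyceride is built by adding fatty acids in turn to a glycerol 3-phosphate backbone and removing its phosphate before the last step. In fat cells, which have little glycerol kinase, the backbone comes from glucose or from pyruvate. The route from pyruvate runs through phosphoenolpyruvate carboxykinase (Pck1) and is called glyceroneogenesis. Glycerol 3-phosphate dehydrogenase (Gpd1) serves both routes. Gpam, Agpat2 and Lpin1 carry out the steps up to diacylglycerol, Dgat1 and Dgat2 add the last fatty acid, Mogat1 and Mogat2 make diacylglycerol from monoacylglycerol, and Pnpla3 is a lipid droplet protein with hydrolase and acyltransferase activity that rises with feeding in fat and liver. Transcript levels were compared, not enzyme activity or stored triglyceride.

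The deposited values were converted back to normalized read counts, that is, reads per gene divided by a scaling factor for each library. Libraries held 46907377 to 57610899 reads, and depth was not a limit for most of the 10 genes. Adipocyte markers were abundant in every library, with the summed count of 10 markers between 486062 (DIO-HFD replicate 1) and 1637852 (DIO-LFD replicate 1), so the tissue matches adipose tissue by its markers. Mammary epithelium markers summed to between 20826 and 83265. The characteristics field names the E0771 line, but the source is given as normal contralateral tissue. Libraries also differed in other cell types. B cell markers summed to 85937 in DIO-HFD replicate 1 but to 258 and 1295 in CON-LFD replicates 2 and 4 and to 2933 and 976 in DIO-HFD replicates 2 and 3. Skeletal muscle markers were highest in DIO-LFD replicate 4 (138713), CON-LFD replicate 4 (31977) and DIO-VSG replicate 2 (23088). Ucp1, the uncoupling protein of thermogenic fat, reached 24043 in CON-LFD replicate 2 and 21836 in DIO-VSG replicate 3, and was at 5 to 226 in DIO-HFD. In bulk tissue, fewer cells of a type and less RNA per cell cannot be told apart.

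Promoter windows, the 250 bases before a RefSeq transcription start on GRCm38.p6, were found in the table used here for 6 of the 10 genes. Some are shown because Pck1, Lpin1 and Pnpla3 hold short elements known from metabolic promoters. Capitals mark the core ACGTCA of a cAMP response element (CRE) in Pck1, the nuclear receptor element AGGTCA in Lpin1, and, in Pnpla3, a CCAAT box read on the opposite strand and then the CRE cores of both strands, which overlap.
Pck1, chr2:173152823-173153072, plus strand: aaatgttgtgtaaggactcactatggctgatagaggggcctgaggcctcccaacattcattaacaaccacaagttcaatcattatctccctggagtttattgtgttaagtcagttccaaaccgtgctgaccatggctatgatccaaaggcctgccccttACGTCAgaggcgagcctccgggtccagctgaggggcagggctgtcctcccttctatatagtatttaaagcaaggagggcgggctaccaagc
Lpin1, chr12:16610967-16611216, minus strand: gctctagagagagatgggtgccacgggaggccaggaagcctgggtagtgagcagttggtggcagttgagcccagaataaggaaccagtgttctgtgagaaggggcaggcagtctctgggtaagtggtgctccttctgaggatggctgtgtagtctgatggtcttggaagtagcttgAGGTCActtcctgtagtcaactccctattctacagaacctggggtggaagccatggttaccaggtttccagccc
Pnpla3, chr15:84167566-84167815, plus strand: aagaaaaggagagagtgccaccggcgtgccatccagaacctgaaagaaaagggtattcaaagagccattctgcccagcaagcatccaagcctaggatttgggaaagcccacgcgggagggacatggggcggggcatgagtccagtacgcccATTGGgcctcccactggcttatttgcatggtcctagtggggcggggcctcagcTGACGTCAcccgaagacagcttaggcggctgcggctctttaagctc

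Short elements were searched on both strands of all 32851 windows of this length. ACGTCA lay in 6.47% of all windows and in those of Pck1, Pnpla3 and Gpam. CCAAT lay in 33.8% of all windows and in those of Pnpla3 and Gpam, and AGGTCA in 14% and in those of Lpin1 and Gpam. TATAAA, the E-box CACGTG and the sterol element TCACNCCAC, at 12.4%, 6.02% and 1.05% of all windows, were in none of the members' windows. Gpam had a pair of windows and Mogat1 and Agpat2 had none of the 6 elements. The windows of Pck1 and Mogat1 reach into the GENCODE gene, since the annotated starts differ. Of the Gpam windows, that at chr19:55099478-55099727 lies wholly inside the gene and holds its ACGTCA and AGGTCA. The window just before the GENCODE gene holds only the CCAAT. These matches are of letters only.

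The level of all 10 genes was lowest, on the group mean of log2 values, in the obese DIO-HFD mice. The direction held for every library left out except for Mogat2, which turned without DIO-HFD replicate 1 or DIO-LFD replicate 4. No gene of the 10 passed an adjusted p of 0.05 (limma, Benjamini-Hochberg over 21218 genes) in any of 7 comparisons, and few genes of the whole table did in this fit. The share of all genes called was 0.0377% for DIO-HFD versus CON-LFD, 0.00471% for DIO-LFD versus CON-LFD and 0% for DIO-LFD versus DIO-HFD, DIO-VSG versus DIO-HFD, DIO-VSG versus DIO-LFD, DIO-VSG versus CON-LFD and DIO-HFD versus the mean of the 3 low-fat groups. At an unadjusted p under 0.05, 9 of the 10 were lower in DIO-HFD than in CON-LFD, where 7.66% of all genes were lower at that level. The exception was Mogat2. In limma-voom on the recovered reads the same comparison called 0 genes after adjustment. It had 9 members lower at an unadjusted p under 0.05, beside 1608 of all genes. Since p-values before adjustment are not calls, they are given here only to order the genes and to set the 10 beside the background. The number of genes called depended on the fit. The paper used DESeq2 and reported numerous genes as differentially expressed in the comparisons with DIO-HFD. In limma with array weights, 19.8% of all genes and 7 of the 10 passed for DIO-HFD versus CON-LFD.

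All 10 values were above 0 in DIO-LFD and in DIO-VSG versus DIO-HFD. At an unadjusted p under 0.05, 8 of the 10 were higher in DIO-LFD (all but Dgat2 and Mogat2), beside 5.37% of all genes, and 7 were higher in DIO-VSG (all but Gpam, Dgat2 and Mogat2), beside 5.05%. Against the mean of the low-fat groups, 9 of the 10 were lower in DIO-HFD at that level, beside 6.66%. These comparisons share the same 4 DIO-HFD libraries and are not independent of each other. The median log2 fold change of the 10 genes was -1.21 for DIO-HFD versus CON-LFD, 1.15 for DIO-LFD versus DIO-HFD and 0.90 for DIO-VSG versus DIO-HFD, while the median over all genes was 0.02, 0.01 and 0.02. All DIO-HFD libraries lay below all CON-LFD libraries in 4 genes (Gpam, Lpin1, Pck1 and Mogat1), against 3% of all genes. They lay below all DIO-LFD libraries in 5 (Gpam, Dgat1, Gpd1, Pck1 and Mogat1), against 3.01%, and below all DIO-VSG libraries in 4 (Agpat2, Lpin1, Dgat1 and Gpd1), against 2.37%. These shares count only genes separated in that same direction. No member lay below all 12 low-fat libraries in all 4 DIO-HFD libraries, which 0.438% of all genes did.

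**Figure D1:**
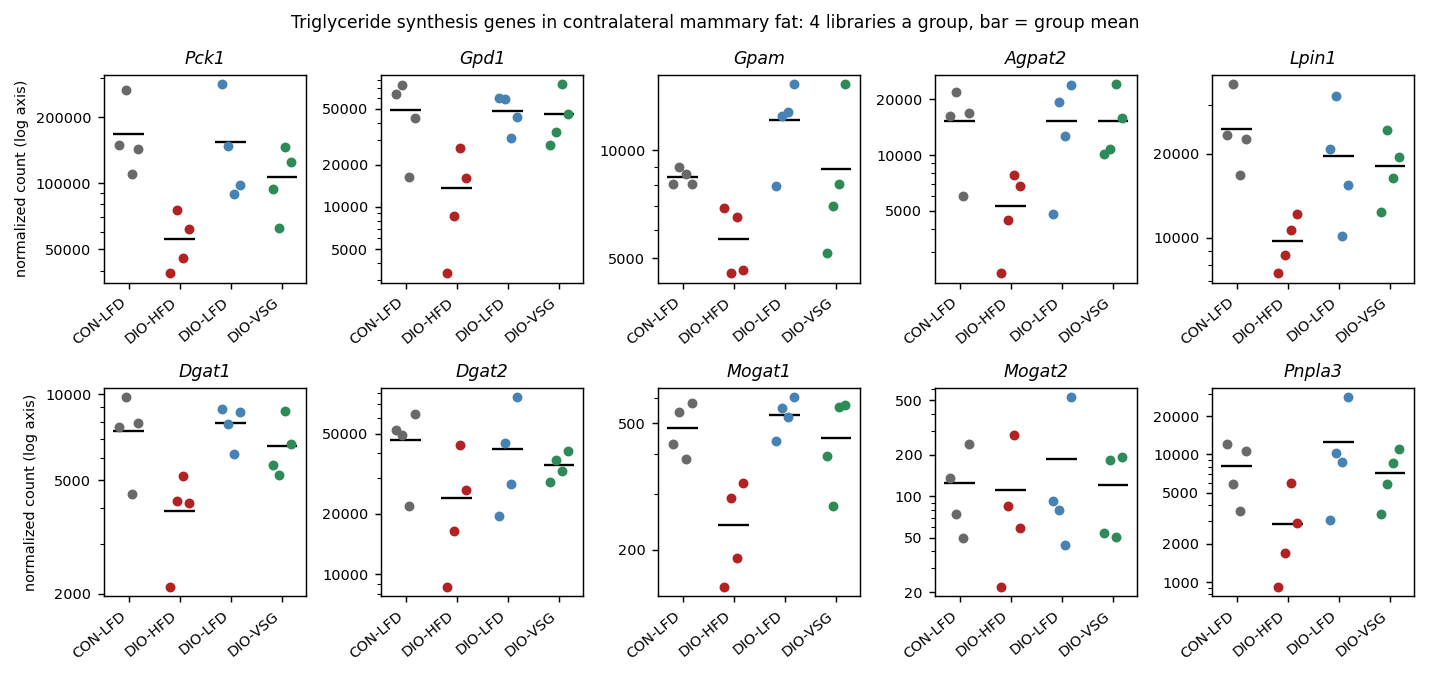
Normalized counts of the 10 genes (log axis) in each library, with 4 points a group and a bar at the group mean. Pck1 in DIO-HFD lay between 38859 and 75756 and below every CON-LFD and DIO-LFD library, while Mogat2 overlapped in all groups.

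Per kilobase of merged exons in GENCODE M21, so that genes can be compared with each other, Pck1 was the most abundant of the 10, at 45441 ± 26300 normalized counts per kb (SD over 16 libraries). Dgat2 followed at 16320 ± 7866, then Gpd1 at 13731 ± 7910, Agpat2 at 8574 ± 4861 and Pnpla3 at 5842 ± 4948. Dgat1 (3426 ± 1145), Lpin1 (2913 ± 1320) and Gpam (1383 ± 544) were lower, and Mogat1 (347 ± 119) and Mogat2 (76.2 ± 72.4) were the least abundant. Pck1 was above Dgat2 in 15 of 16 libraries, Lpin1 above Gpam in 15 and Gpam above Mogat1 in all 16. Dgat2 exceeded Gpd1 in only 12, Pnpla3 exceeded Dgat1 in 11 and Dgat1 exceeded Lpin1 in 11, so these neighbors were not separated beyond their spread.

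Pck1 (ENSMUSG00000027513.11, GRCm38 chr2:173153048-173159273) encodes the cytosolic phosphoenolpyruvate carboxykinase, the controlled step of glyceroneogenesis. Its normalized count was 149502, 265503, 110150 and 142549 in CON-LFD, 38859, 75756, 45560 and 61867 in DIO-HFD, 282881, 147779, 89388 and 98406 in DIO-LFD, and 94101, 62307, 145409 and 124699 in DIO-VSG. Every DIO-HFD library was below every CON-LFD and DIO-LFD library, and a single DIO-VSG library, replicate 2, fell within the DIO-HFD range. The level in DIO-HFD was 2.94-fold lower than in CON-LFD (log2 fold change -1.56 ± 0.39 SE, unadjusted p = 0.00121, adjusted p = 0.185). It was 2.58-fold higher in DIO-LFD than in DIO-HFD (adjusted p = 0.420) and 1.89-fold higher in DIO-VSG than in DIO-HFD (adjusted p = 0.347). In DIO-LFD, replicate 1 stood above the other libraries of its group, and without it the log2 fold change to DIO-HFD was 1.02 instead of 1.37.

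Gpd1 (ENSMUSG00000023019.12, GRCm38 chr15:99717515-99725005) encodes the cytosolic glycerol 3-phosphate dehydrogenase, which reduces dihydroxyacetone phosphate to glycerol 3-phosphate. In the main fit it had the largest fold difference of the 10 genes in the comparisons of DIO-HFD with each other group. With array weights its log2 fold change in DIO-LFD versus DIO-HFD was 1.50, where that of Pnpla3 was 1.51 or more under every alternative. Counts were 64320, 73778, 16370 and 42897 in CON-LFD, 3360, 8576, 26531 and 16065 in DIO-HFD, 59509, 58979, 31087 and 43719 in DIO-LFD, and 27608, 34332, 75354 and 46075 in DIO-VSG. DIO-HFD lay below both weight loss groups in all libraries and overlapped CON-LFD through CON-LFD replicate 3. The DIO-HFD mean of log2 values was 4.06-fold below CON-LFD (-2.02 ± 0.59, adjusted p = 0.227), and Gpd1 was 4.44-fold higher in DIO-LFD and 4.05-fold higher in DIO-VSG than in DIO-HFD (adjusted p = 0.394 and 0.259). The 4 DIO-HFD libraries themselves ranged from 3360 to 26531, and without replicate 1 the difference from CON-LFD was -1.47. An antisense gene, Gm16537, overlaps Gpd1, and whether the counting used strand is not given in the sources used here.

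Gpam (ENSMUSG00000024978.11, GRCm38 chr19:55067268-55127238), the mitochondrial glycerol 3-phosphate acyltransferase of the first acylation, was the steadiest of the genes in lean mice. Its counts were 8034, 8976, 8585 and 8065 in CON-LFD (coefficient of variation 5.36%), 6886, 4535, 6526 and 4631 in DIO-HFD, 7950, 12520, 12844 and 15330 in DIO-LFD, and 5174, 7017, 8071 and 15335 in DIO-VSG. All 4 DIO-HFD libraries were below all CON-LFD and DIO-LFD libraries, and DIO-VSG overlapped them. The difference from CON-LFD was small, 1.52-fold (-0.60 ± 0.28, adjusted p = 0.383). Gpam was 2.13-fold higher in DIO-LFD than in DIO-HFD (1.09 ± 0.28, adjusted p = 0.329) but 1.48-fold higher in DIO-VSG (0.56 ± 0.28, adjusted p = 0.389), and the last value dropped to 0.26 without DIO-VSG replicate 4. Between DIO-VSG and DIO-LFD themselves the log2 difference was -0.53 ± 0.28 (unadjusted p = 0.0766, adjusted p = 0.511), and the groups overlapped.

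Agpat2 (ENSMUSG00000026922.13, GRCm38 chr2:26593057-26604417), the acyltransferase that makes phosphatidate and whose loss causes lipodystrophy, had counts of 16250, 21976, 5994 and 16957 in CON-LFD, 2294, 4442, 7756 and 6783 in DIO-HFD, 4828, 19404, 12624 and 24019 in DIO-LFD, and 10099, 10725, 24201 and 15917 in DIO-VSG. All DIO-VSG libraries were above all DIO-HFD libraries. CON-LFD replicate 3 and DIO-LFD replicate 1 were the only low-fat libraries within the DIO-HFD range. The fold difference of DIO-HFD was 2.87-fold below CON-LFD (-1.52 ± 0.54, adjusted p = 0.266), and Agpat2 was 2.70-fold higher in DIO-LFD (adjusted p = 0.491) and 2.97-fold higher in DIO-VSG (adjusted p = 0.292) than in DIO-HFD. The protein-coding genes Egfl7 and Gm20532 overlap it on the other strand.

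Lpin1 (ENSMUSG00000020593.15, GRCm38 chr12:16535669-16610966) encodes lipin 1, a phosphatidate phosphatase that makes diacylglycerol and also acts with nuclear receptors. Its counts were 23292, 35586, 16824 and 22558 in CON-LFD, 7464, 8676, 10704 and 12221 in DIO-HFD, 20878, 32336, 10182 and 15443 in DIO-LFD, and 12334, 24342, 16422 and 19410 in DIO-VSG. DIO-HFD lay below all CON-LFD and DIO-VSG libraries, the latter by a narrow margin (12221 against 12334), and only DIO-LFD replicate 3 fell within its range. Lpin1 was 2.47-fold lower in DIO-HFD than in CON-LFD (-1.30 ± 0.32, unadjusted p = 0.00123, adjusted p = 0.185), and 1.88-fold and 1.83-fold higher in DIO-LFD and DIO-VSG than in DIO-HFD (adjusted p = 0.475 and 0.312).

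Dgat1 (ENSMUSG00000022555.12, GRCm38 chr15:76502015-76511953) and Dgat2 (ENSMUSG00000030747.5, GRCm38 chr7:99153658-99182719) encode unrelated proteins with the same activity, the addition of the last fatty acid. Dgat1 had counts of 7695, 9772, 4469 and 7923 in CON-LFD, 2118, 4221, 5157 and 4155 in DIO-HFD, 8910, 7865, 6191 and 8695 in DIO-LFD, and 5658, 5230, 8768 and 6676 in DIO-VSG. It was below both weight loss groups in all DIO-HFD libraries, and among the 12 low-fat libraries only CON-LFD replicate 3 fell within the DIO-HFD range. Dgat1 was 1.93-fold lower in DIO-HFD than in CON-LFD (-0.95 ± 0.28, adjusted p = 0.232), and 2.11-fold and 1.73-fold higher in DIO-LFD and DIO-VSG than in DIO-HFD (adjusted p = 0.350 and 0.305). The DIO-VSG value of 0.79 on the log2 scale was 0.52 without DIO-HFD replicate 1.

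Dgat2 spread more widely. Its counts were 52395, 49190, 21965 and 63074 in CON-LFD, 8696, 16445, 44039 and 26373 in DIO-HFD, 19575, 45206, 28045 and 75934 in DIO-LFD, and 28815, 37047, 32627 and 41209 in DIO-VSG. DIO-HFD replicate 3 was above all DIO-VSG libraries, so the groups overlapped in every comparison. The log2 fold change was -1.11 ± 0.49 for DIO-HFD versus CON-LFD (adjusted p = 0.360), 0.88 ± 0.49 for DIO-LFD versus DIO-HFD (adjusted p = 0.697) and 0.78 ± 0.49 for DIO-VSG versus DIO-HFD (adjusted p = 0.443). Without DIO-HFD replicate 1 these values were -0.70, 0.47 and 0.37. The DIO-HFD versus low-fat value went from -0.92 to -0.52 without that library and to -1.30 without DIO-HFD replicate 3.

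The balance of the final enzymes, taken as log2 Dgat2 minus log2 Dgat1 counts, did not separate the groups. It was 2.77, 2.33, 2.30 and 2.99 in CON-LFD, 2.04, 1.96, 3.09 and 2.67 in DIO-HFD, 1.14, 2.52, 2.18 and 3.13 in DIO-LFD, and 2.35, 2.82, 1.90 and 2.63 in DIO-VSG. DIO-HFD differed from the low-fat libraries by 0.02 (two-sided exact permutation test over 1820 arrangements, p = 0.951, adjusted p = 0.971 over 7 tests), and the 6 pairs of groups differed by -0.36 to 0.18 with exact p from 0.543 to 0.971. With 4 against 4 the smallest p is 0.0286. The lowest ratio, 1.14, was that of DIO-LFD replicate 1.

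Mogat1 (ENSMUSG00000012187.13, GRCm38 chr1:78510991-78538173), a monoacylglycerol acyltransferase, was scarce but had the smallest p of the 10 genes in DIO-HFD versus the low-fat groups. Its counts were 432, 543, 386 and 578 in CON-LFD, 153, 291, 189 and 324 in DIO-HFD, 440, 560, 524 and 604 in DIO-LFD, and 395, 274, 561 and 572 in DIO-VSG. DIO-HFD was below all CON-LFD and DIO-LFD libraries, and DIO-VSG replicate 2 fell within its range. Mogat1 was 2.09-fold lower in DIO-HFD than in the low-fat groups (-1.06 ± 0.22, unadjusted p = 0.000238, adjusted p = 0.118). It was 2.31-fold higher in DIO-LFD than in DIO-HFD (adjusted p = 0.296) and 1.89-fold higher in DIO-VSG (adjusted p = 0.259). The gene BC035947 overlaps Mogat1 on the other strand and had counts of 75, 149, 80 and 214 in DIO-HFD and 107 to 272 elsewhere, and shared reads between them were not tested.

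Mogat2 (ENSMUSG00000052396.7, GRCm38 chr7:99219084-99238619), best known from the intestine and a neighbor of Dgat2 on chromosome 7, did not follow the others. Its counts were 135, 74, 50 and 239 in CON-LFD, 22, 85, 280 and 59 in DIO-HFD, 93, 79, 44 and 526 in DIO-LFD, and 54, 185, 51 and 192 in DIO-VSG. All groups overlapped, and the difference of DIO-HFD from the low-fat groups was -0.49 ± 0.69 (unadjusted p = 0.488, adjusted p = 0.834). High counts in CON-LFD replicate 4, DIO-LFD replicate 4 and DIO-VSG replicate 2 went with the highest muscle marker sums. Without these 3 libraries, an alternative chosen after seeing the data, the value was -0.02. The high counts in DIO-HFD replicate 3 and DIO-VSG replicate 4 were in libraries with muscle sums of 3243 and 3095. The former was the highest of DIO-HFD (891 to 3243), and the latter was above DIO-VSG replicates 1 and 3 (2369 and 491).

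Pnpla3 (ENSMUSG00000041653.5, GRCm38 chr15:84167837-84187236) had the widest range of the abundant genes. Counts were 12137, 5868, 3611 and 10670 in CON-LFD, 921, 1701, 5995 and 2891 in DIO-HFD, 3042, 10209, 8801 and 28037 in DIO-LFD, and 3386, 5848, 8607 and 11004 in DIO-VSG. DIO-HFD replicate 3 lay within each low-fat group, and DIO-HFD replicates 1, 2 and 4 lay below all 12 low-fat libraries. Pnpla3 was 3.17-fold lower in DIO-HFD than in CON-LFD (-1.66 ± 0.67, adjusted p = 0.320), 4.10-fold higher in DIO-LFD than in DIO-HFD (adjusted p = 0.463) and 2.88-fold higher in DIO-VSG (adjusted p = 0.362). Its overlapping genes include Gm49513 on the same strand.

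**Figure D2:**
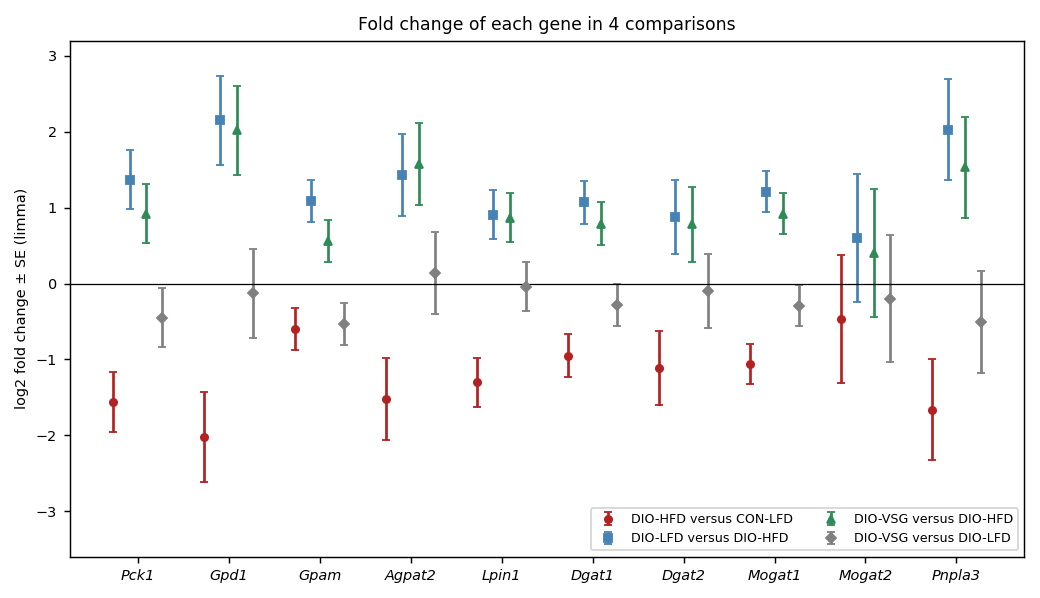
Log2 fold change of each gene with its SE from limma in 4 comparisons, the first 3 of which share the DIO-HFD libraries. DIO-HFD is below CON-LFD for all 10 genes, with values from -2.02 to -0.47 (Mogat2 turned to 0.10 without DIO-HFD replicate 1), and DIO-VSG versus DIO-LFD lies between -0.53 and 0.14.

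The study also set weight loss by surgery beside weight loss by diet. For these genes, 0 of 10 had an unadjusted p under 0.05 in limma between DIO-VSG and DIO-LFD (9.71% of all genes did, in either direction), between DIO-LFD and CON-LFD (6.26%) or between DIO-VSG and CON-LFD (17.8%), and limma-voom gave 0 in each as well. Fitted on their 8 libraries alone, DIO-VSG versus DIO-LFD had 5364 of all genes at that level and 7.22% past adjustment, and 0 of the 10 at either. 9 of the 10 values were negative in DIO-VSG versus DIO-LFD, with a median of -0.24 against -0.02 over all genes. The 10 adipocyte markers were all negative in the same comparison, with a median of -0.42. The SE of these differences ran from 0.27 for Mogat1 to 0.84 for Mogat2, so the precision of the comparison varied by gene, and a p that misses the threshold does not show that the levels were alike. The lowest value in DIO-VSG versus CON-LFD was that of Pck1 (-0.64 ± 0.39, adjusted p = 0.363), and the highest in DIO-LFD versus CON-LFD was that of Gpam (0.49 ± 0.28, adjusted p = 0.848).

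Adipocyte content was set beside the result in each library. The mean log2 of 10 adipocyte markers was 15.38 ± 0.60 in DIO-HFD, 15.76 ± 0.37 in CON-LFD, 15.71 ± 0.23 in DIO-LFD and 15.27 ± 0.26 in DIO-VSG (SD, 4 libraries each), so DIO-VSG was no higher than DIO-HFD. Of the 10 markers, 8 had lower and 2 higher values in DIO-HFD than in the low-fat groups, with a median log2 fold change of -0.29, and at an unadjusted p under 0.05 there were 2 lower and 1 higher. Adipoq, the adipokine adiponectin, differed by -0.19 ± 0.26 between DIO-HFD and the low-fat groups (adjusted p = 0.828), and Plin1, the droplet coat protein, by -0.36 ± 0.25 (adjusted p = 0.624). Lep, the leptin gene, went the other way at 1.28 ± 0.50 (adjusted p = 0.336).

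With each gene expressed as its log2 level minus that marker mean, all 10 were lower on average in DIO-HFD than in the low-fat groups, with a median difference of -0.84. The marker mean includes Lep, whose higher level in DIO-HFD pushed the relative values there down, and no mean without Lep was made. Dgat1 and Pck1 were below all 12 low-fat libraries in all 4 DIO-HFD libraries, which 0.0943% of all genes were on this scale. Relative Dgat1 was -3.77 to -3.41 in DIO-HFD and -3.17 to -2.14 in the low-fat libraries. Relative Pck1 was -0.26 to 0.75 against 0.77 to 2.12, a narrow margin. Gpd1 had the largest difference on this scale (-1.86), but its DIO-HFD values overlapped CON-LFD replicate 3. Agpat2 differed by -1.30, with DIO-LFD replicate 1 (-3.75) below all other libraries. Gpam differed by -0.55 and overlapped widely. DIO-HFD replicate 1, the library with the fewest adipocyte marker reads, had a relative Gpam level of -1.75.

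**Figure D3:**
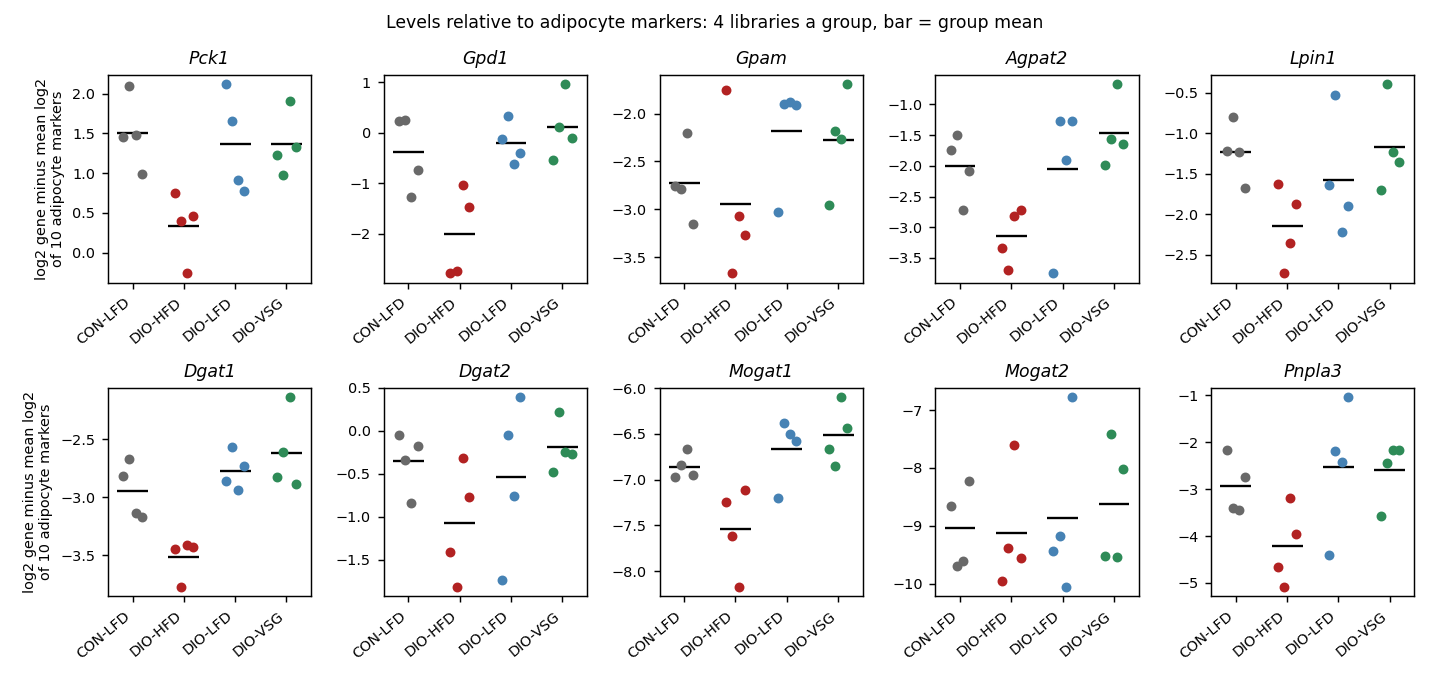
Log2 level of each gene minus the mean log2 level of 10 adipocyte markers in the same library, with 4 points a group and a bar at the mean. For Dgat1 and Pck1 the 4 DIO-HFD points lie under all 12 low-fat points, and for Mogat2 the groups overlap.

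Other cell type markers also differed between libraries. All 8 thermogenic adipocyte markers were lower in DIO-HFD than in the low-fat groups, 7 of them at an unadjusted p under 0.05, with summed counts of 448 to 1433 in DIO-HFD, 2538 to 53826 in CON-LFD, 3423 to 9563 in DIO-LFD and 1161 to 38851 in DIO-VSG. Leaving out the libraries richest in Ucp1, CON-LFD replicate 2 and DIO-VSG replicate 3 (chosen after seeing the data), left 8 of the 10 genes lower at an unadjusted p under 0.05 in DIO-HFD versus the low-fat groups, beside 1030 of all 21218 genes. In that fit 7 were lower in DIO-HFD than in CON-LFD (beside 978 of all genes). There 8 were higher in DIO-LFD than in DIO-HFD (beside 1221) and 5 in DIO-VSG (beside 579). All 10 skeletal muscle markers had negative values in DIO-HFD versus the low-fat groups, 2 of them at an unadjusted p under 0.05, with a median log2 fold change of -1.91 and sums of 891 to 3243 in DIO-HFD, 2331 to 31977 in CON-LFD, 1415 to 138713 in DIO-LFD and 491 to 23088 in DIO-VSG. Without the 3 libraries richest in muscle markers, also chosen after seeing the data, 8 of the 10 genes were lower at that level, beside 1367 of all genes. Against CON-LFD alone 6 were lower in DIO-HFD (beside 1324), and 6 were higher in DIO-LFD (beside 808) and 6 in DIO-VSG (beside 957) than in DIO-HFD. All 8 macrophage markers had positive values in DIO-HFD versus the low-fat groups, 1 of them at an unadjusted p under 0.05, with sums of 39079 to 61752 there and 12428 to 111715 in CON-LFD, 38139 to 56035 in DIO-LFD and 26474 to 60605 in DIO-VSG. B cell sums ranged from 976 to 85937 in DIO-HFD, 258 to 64617 in CON-LFD, 15372 to 34998 in DIO-LFD and 59262 to 68812 in DIO-VSG. Of 8 mammary epithelium markers tested, 5 had lower values in DIO-HFD than in the low-fat groups, 3 of them at an unadjusted p under 0.05, with a median of -0.57. All 5 hepatocyte markers tested had lower values, 2 of them at that level, with a median of -1.11. Among them Alb was at 444 to 1246 in DIO-HFD and 1766 to 4205 elsewhere, while the liver-defining Ttr, too low to be tested, was at 0 to 2 in all libraries but DIO-LFD replicate 1 (167). Keratinocyte and sebocyte markers summed to 10309 in DIO-HFD replicate 4 and to 134 to 761 in the other libraries. The part of these cell types in the members' differences was not tested. Some fits used an adipocyte or a lymphocyte score or left out the Ucp1-rich or the muscle-rich libraries. No fit used a thermogenic score. Without the Ucp1-rich libraries, thermogenic sums were still 1161 to 11718 in the low-fat libraries, beside 448 to 1433 in DIO-HFD.

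Within groups most of the genes moved together in DIO-HFD and CON-LFD, and less so in DIO-LFD. In DIO-HFD, replicate 1 was the lowest library for 9 of the 10 genes, and replicate 3 the highest for 6. In CON-LFD, replicate 3 was the lowest for 9 of the 10. DIO-HFD replicate 1 and CON-LFD replicate 3 held the highest B cell sums (85937 and 64617) and T cell sums (32933 and 23109) of their groups, and DIO-HFD replicate 3 the lowest of its group (976 and 1199). In DIO-LFD, replicate 1 held the group's highest Pck1, Gpd1 and Dgat1 and its lowest Gpam, Agpat2, Dgat2, Mogat1 and Pnpla3. DIO-LFD replicate 1 also had a Lep count of 104465, against 25136 to 46975 in the other libraries of its group. DIO-LFD replicate 4 was the highest for 6 of the 10, among them Pnpla3 and Dgat2.

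**Figure D4:**
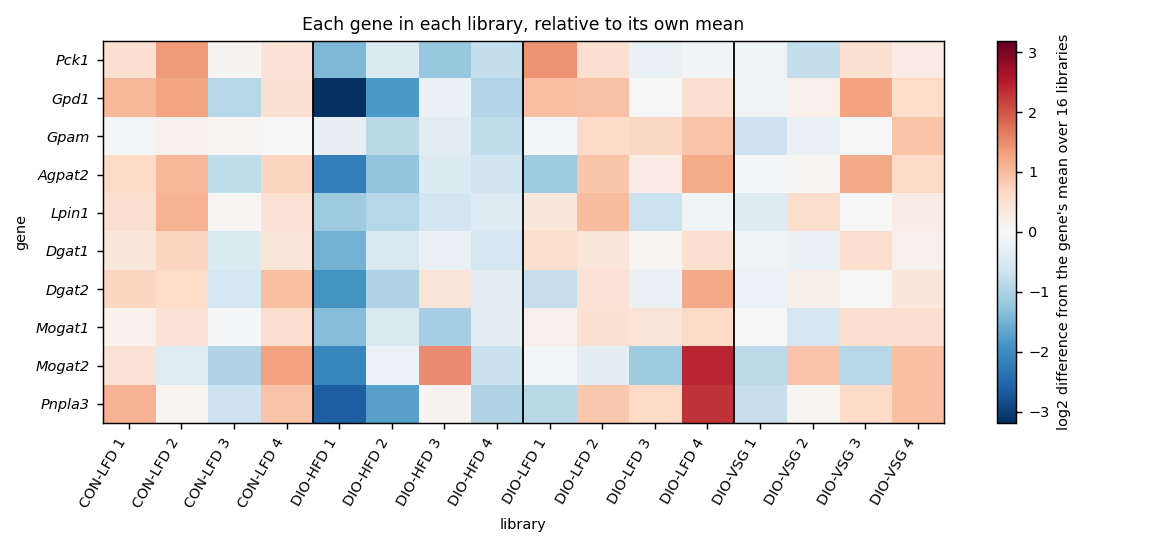
Log2 difference of each gene in each library from that gene's own mean over 16 libraries, with red above and blue below the mean. DIO-HFD replicates 1, 2 and 4 are blue for all 10 genes, and DIO-LFD replicate 1 is red for Pck1 and blue for Dgat2, Agpat2 and Pnpla3.

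A further 35 genes of the pathway were listed, and 0 passed the adjusted threshold in limma in any of the 7 comparisons. Against the low-fat groups, 9 of the 35 were lower and 1 was higher in DIO-HFD at an unadjusted p under 0.05, and their median log2 fold change was 0.02, where that of the 10 members was -1.05 and that of all genes -0.01. By the rule for naming genes, these were led by Pcx, Acsl1 and Gpd2. Pcx, the pyruvate carboxylase that feeds Pck1, had counts of 7033, 16805, 24697 and 14478 in DIO-HFD and 16113 to 72346 elsewhere (-1.50 ± 0.35, adjusted p = 0.142). Acsl1, the main long-chain acyl-CoA synthetase of fat cells, was at 22036, 47649, 72838 and 64365 in DIO-HFD, and 10 of the 12 low-fat libraries were above the highest of these (-1.25 ± 0.32, adjusted p = 0.177). Gpd2, the mitochondrial glycerol 3-phosphate dehydrogenase that works with Gpd1 in a shuttle, was at 2507, 2639, 3268 and 2837 in DIO-HFD and from 3505 to 13068 in the low-fat libraries, which did not overlap (-1.21 ± 0.34, adjusted p = 0.207).

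The related enzymes that share a step with a member were mostly flatter. Of 10 other acyltransferases and lipins, 3 were lower and 1 higher at an unadjusted p under 0.05, with a median of -0.12. Chosen after their values were seen, Agpat9 (the table's older symbol for Gpat3) was at -0.89 ± 0.30 (adjusted p = 0.264), Gpat4 at -0.44 ± 0.19 (adjusted p = 0.387) and Agpat1 at -0.27 ± 0.09 (adjusted p = 0.256), while Agpat4 was at 0.47 ± 0.20 (adjusted p = 0.374). Lpin2 was at -0.40 ± 0.22 and Lpin3 at 0.06 ± 0.24, beside -1.03 ± 0.26 for Lpin1. Pck2, the mitochondrial carboxykinase, was at 0.07 ± 0.13 and Gpd1l, a relative of Gpd1, at -0.05 ± 0.07. No test compared these with the members.

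Of the other lists, 2 of 8 genes of glycerol and glycerol 3-phosphate supply, 2 of 5 acyl-CoA synthetases, 1 of 8 genes that use phosphatidate or diacylglycerol for phospholipids and 1 of 4 lipid droplet assembly genes were lower in DIO-HFD than in the low-fat groups at an unadjusted p under 0.05, with medians of 0.01, 0.02, 0.20 and -0.19. In DIO-HFD versus CON-LFD the smallest p-values were those of Acsl1 (-1.47 ± 0.39, adjusted p = 0.215), Chpt1, a cholinephosphotransferase that takes diacylglycerol into phosphatidylcholine (-1.32 ± 0.39, adjusted p = 0.232), and Pcx (-1.35 ± 0.43, adjusted p = 0.247). In DIO-LFD versus DIO-HFD they were Pcx (1.83 ± 0.43, adjusted p = 0.305), Bscl2, the seipin of droplet formation (0.88 ± 0.25, adjusted p = 0.424), and Agpat1 (0.35 ± 0.11, adjusted p = 0.456). In DIO-VSG versus DIO-HFD they were Pcx (1.32 ± 0.43, adjusted p = 0.275), Gpd2 (1.21 ± 0.42, adjusted p = 0.297) and Acsl1 (1.11 ± 0.39, adjusted p = 0.305).

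Between the low-fat groups the leading genes were others. For DIO-VSG versus DIO-LFD they were Lpin3 (-0.82 ± 0.29), Plpp3, a lipid phosphate phosphatase (-0.91 ± 0.35), and Gpd1l (0.21 ± 0.09), each with an adjusted p of 0.509. Gpd1l was at 3657 to 4062 in DIO-VSG and 3214 to 3466 in DIO-LFD, with no overlap but a small difference. For DIO-VSG versus CON-LFD they were Aqp3, a glycerol channel (1.61 ± 0.67), Plpp2 (-0.56 ± 0.24) and Lpin3 (-0.68 ± 0.29), each with an adjusted p of 0.268. For DIO-LFD versus CON-LFD they were Acsl3 (-0.42 ± 0.23, adjusted p = 0.847), Agpat4 (0.43 ± 0.24, adjusted p = 0.850) and Acsl6 (2.07 ± 1.21, adjusted p = 0.860).

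**Figure D5:**
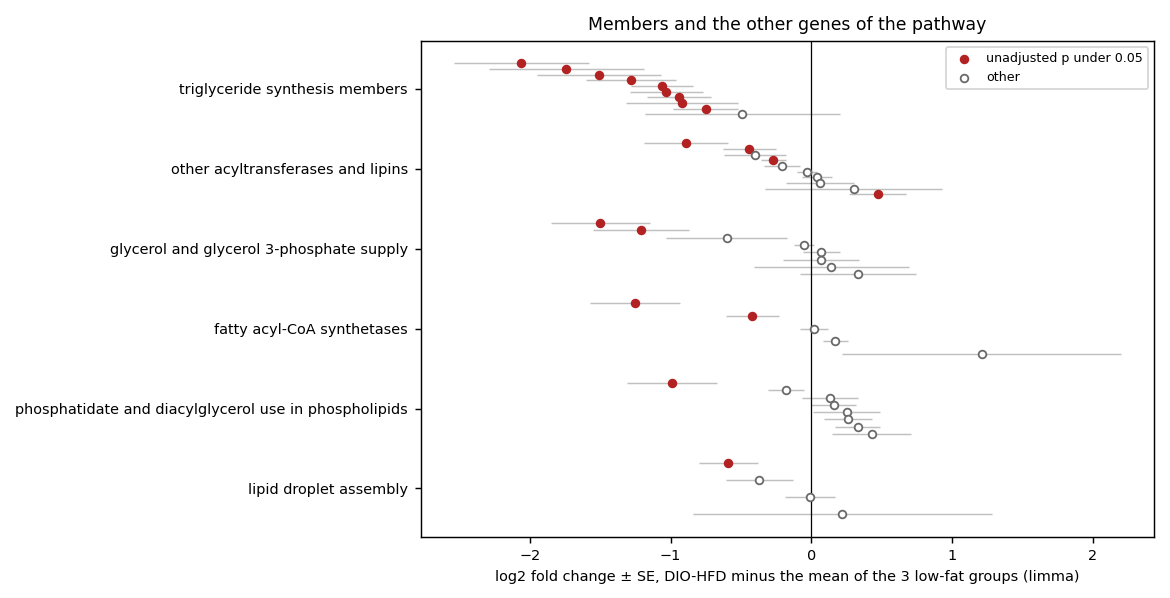
Log2 fold change with SE, DIO-HFD minus the mean of the low-fat groups, for the 10 members and 35 other pathway genes by list; filled points have an unadjusted p under 0.05. 9 of the 10 members and 10 of the other 35 are filled, and Agpat4 is the only filled point above 0.

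The genes most like each member were read as the highest Pearson r of log2 levels over the 16 libraries, a description that includes the difference between groups and the cell makeup the libraries share. Dgat1 was closest to the peroxisome assembly genes Pex16 (r = 0.966) and Pex11a (r = 0.958), then to Gys1, a glycogen synthase (r = 0.957). Gpd1 was closest to Acsl1 (r = 0.956), Arxes1 (r = 0.956) and Pex16 (r = 0.953). Pnpla3 was closest to Slc25a10, the mitochondrial dicarboxylate carrier (r = 0.969), to Gm11788 (r = 0.952) and to Angptl8, a feeding-induced lipase regulator (r = 0.943). Mogat1 was closest to Srebf1, which encodes a lipogenic transcription factor (r = 0.921), to Hcar1 (r = 0.916) and to Gldc (r = 0.913). Srebf1 itself was at 5739 to 8827 in DIO-HFD and 8923 to 18029 elsewhere.

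Pck1 was most like S100a1 (r = 0.956), Pde3b, the phosphodiesterase through which insulin restrains lipolysis (r = 0.931), and Sfxn1 (r = 0.930). Dgat2 was most like Tmem179 (r = 0.962), A530016L24Rik (r = 0.929) and Aldh1a7 (r = 0.929). Agpat2 was most like Adcy10 (r = 0.959), Nat8l (r = 0.953) and Cdk5 (r = 0.951). Lpin1 was most like Aqp11 (r = 0.944), Plpp6 (r = 0.887) and Cyp2e1 (r = 0.887). Cyp2e1, a cytochrome P450, was at 1580 to 9703 in DIO-HFD and 13162 to 76255 elsewhere. Gpam had weaker matches in Haus7 (r = 0.864), Folr1 (r = 0.831) and Stk16 (r = 0.816), and Mogat2 was most like Tekt1 (r = 0.934), Npc2 (r = 0.926) and Hfe2, a gene of skeletal muscle (r = 0.899).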

How the data were processed

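Total RNA from the contralateral mammary fat pad was sequenced as stranded paired-end libraries, 4 for each of 4 groups. The authors deposited log2 values from a variance-stabilizing transformation of DESeq2; the study's methods name STAR and salmon with Gencode on GRCm38, whereas the submitters' processing notes list TopHat2 2.0.7, HTSeq 0.5.3p9 and mm10, and which of these made the table was not resolved. The log2 values were inverted to normalized counts, which gave whole reads for 100% of values (within 0.1). A gene was tested where 4 or more libraries reached 10 normalized counts. Counts plus 1 were put on the log2 scale, which understates the folds of low genes, and all 16 libraries entered a single fit with an intensity trend (limma 3.58.1, R 4.3.3). The Benjamini-Hochberg adjusted threshold was 0.05. The fit was also run on simulated counts with the same dispersion for all genes and no differences in cell makeup, a simpler setting than these libraries. The ratio used exact permutation tests (numpy 2.4.6). Positions came from GENCODE M21 (GRCm38), where 22176 of 23179 symbols matched once, and promoters from RefSeq. The members and lists were chosen with earlier results of these data known. Named genes were all members, the pathway genes past the threshold or else the 3 with the smallest p in each comparison, and the 3 genes most like each member. Each library carries its own animal number, so p-values cover the spread between these mice. Alternatives covered scaling, filters, pseudocount, weights, voom, covariates, the replicate block and each library left out.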

Additional observations from a re-analysis of the deposited data

How the results depend on the processing

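Counts of members past the adjusted threshold were 0 without any 1 of the 16 libraries (range 0 to 0) and under all alternatives but those named here. With array weights, which gave DIO-HFD replicate 4 a weight of 10.9 and DIO-HFD replicate 3 one of 0.222, 7 members passed for DIO-HFD versus CON-LFD (beside 19.8% of all genes), 7 for DIO-LFD versus DIO-HFD (8.54%), 6 for DIO-VSG versus DIO-HFD (17.6%) and 9 for DIO-HFD versus the low-fat groups (20.5%). The same fit took Lpin1 from 0.91 to 0.43 in DIO-LFD versus DIO-HFD, from 0.87 to 0.54 in DIO-VSG versus DIO-HFD and from -1.03 to -0.66 against the low-fat groups, and Mogat1 from -1.06 to -0.56 in DIO-HFD versus CON-LFD, from 0.92 to 0.56 in DIO-VSG versus DIO-HFD and from -1.06 to -0.64 against the low-fat groups. With a lymphocyte or an adipocyte score as covariate, 3 members (Mogat1, Dgat1 and Gpd1) passed in the last comparison, beside 152 and 256 of all genes. The adipocyte covariate left 6 members lower at an unadjusted p under 0.05 for DIO-HFD versus CON-LFD, beside 1552 of all 21218 genes. In that fit Dgat1 was at -0.61 and Dgat2 at -0.69. Dgat2 in DIO-LFD versus DIO-HFD went from 0.88 to 0.52 with that covariate and to 0.53 without the muscle-rich libraries, and in DIO-VSG versus DIO-HFD from 0.78 to 0.47 with array weights and to 1.22 with the lymphocyte covariate. Members at an unadjusted p under 0.05 numbered 6 to 9 for DIO-HFD versus CON-LFD, 6 to 9 for DIO-LFD versus DIO-HFD, 5 to 8 for DIO-VSG versus DIO-HFD and 8 to 9 for DIO-HFD versus the low-fat groups without any 1 library. The share of all genes at that level is not given here for these fits. The low of 6 for DIO-LFD versus DIO-HFD came without DIO-LFD replicate 2, and the low of the other comparisons came without any 1 of several libraries, DIO-HFD replicate 1 among them. These counts were 0 to 1 for DIO-VSG versus DIO-LFD and for DIO-LFD versus CON-LFD; array weights gave 1 in the former (beside 5500 of 21218 genes) and a fit of only the libraries compared gave 1 in the latter (beside 1040), in both fits Gpam. The Dgat2 to Dgat1 ratio ran from -0.20 (without DIO-HFD replicate 3) to 0.18 (without DIO-HFD replicate 2). Signs of single genes were followed in the 4 comparisons with DIO-HFD, where the reversals were all of Mogat2: 0.28 with the adipocyte covariate and -1.10 to 0.10 without a library for DIO-HFD versus CON-LFD, -0.06 with that covariate, -0.13 without the muscle-rich libraries and -0.13 to 1.23 without a library for DIO-LFD versus DIO-HFD, -0.17 to 1.03 without a library for DIO-VSG versus DIO-HFD, and -1.12 to 0.08 without a library for DIO-HFD versus the low-fat groups. The libraries whose loss turned the sign were DIO-HFD replicate 1 and, for DIO-LFD versus DIO-HFD, DIO-LFD replicate 4. The cause was not tested. Replicate numbers did not pair the libraries (same-number correlations of deviations -0.61 to 0.53, 9 of 24 above 0.1), and with them as a replicate block 0 members were called in each comparison and the ratio difference was 0.02. The thinnest counts were those of Mogat2, at 22 to 526.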

Other observations

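In none of the 44 sets of 4 libraries, for the 10 genes and the Dgat2 to Dgat1 ratio, did a library stand apart by Dixon's test. The difference of log2 Pck1 and log2 Gpd1 counts was 3.53 and 3.14 in DIO-HFD replicates 1 and 2 but 0.78 and 1.95 in replicates 3 and 4. In the low-fat libraries it ran from 0.86 in DIO-VSG replicate 2 to 2.75 in CON-LFD replicate 3. Log2 Dgat2 minus log2 Pck1 was -3.85 in DIO-LFD replicate 1 and -0.05 in DIO-HFD replicate 3, the lowest and highest values of the 16. These values were looked at after the data were seen and were not tested.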
